A study of Mus musculus with 2 samples.

Results

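The Sox genes described here are 10 transcription factor genes that mark different germ layers of the gastrulating mouse embryo. They were *Sox1*, *Sox2* and *Sox3* (subgroup SoxB1), *Sox21* (SoxB2), *Sox4* and *Sox11* (SoxC), *Sox7*, *Sox17* and *Sox18* (SoxF) and *Sox9* (SoxE). They were chosen by name, and their probes were found through the RefSeq accession of each probe. All 10 had a probe, among 20281 named genes on the array, and together they had 15 probes. Of these, 13 probes, from 9 genes, were well above background in both embryos.

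RNA of 1 *Dullard*+/- whole embryo (the heterozygote below) and 1 *Dullard*-/- whole embryo (the homozygote), both at E7.5 and of strain C57BL/6 by the labels, was labelled with Cy3 and hybridised to a 1-colour Agilent whole mouse genome array each. *Dullard* (*Ctdnep1*) encodes a phosphatase of the nuclear envelope, and the study asked what its loss changes in the gastrula. The study made a null allele that lacks every exon and a *LacZ* allele that lacks part of them, and called embryos of either *Dullard*-/-. The sources used here do not say which allele these embryos had. There was no wild-type array, so the heterozygote, which has 1 mutant allele, was the reference of every ratio.

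SOX proteins bind DNA through a high mobility group (HMG) domain related to that of SRY, and usually act together with a partner factor on the same enhancer. SOX2 and SOX3 are factors of the epiblast and early neural plate, where SOX2 acts with POU factors, and SOX1 appears as cells commit to the neural fate. SOX17 is required for definitive endoderm, SOX7 and SOX18 act with it in endothelium, SOX4 and SOX11 accompany neuronal and mesenchymal progenitors, and SOX9 marks neural crest and cartilage precursors. Since the RNA was of whole embryos, fewer cells of a type and less RNA per cell cannot be told apart in these values.

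Each signal given below is the background-subtracted brightness of a probe. Each log2 fold change is the signal of the homozygote over that of the heterozygote after both arrays were scaled to their 75th percentile, which was 286 and 264 for *Dullard*+/- and *Dullard*-/-. No genotype had a replicate, so no test was made, and each difference is that between these embryos. The error after ± is the SD expected from replicate spots of probes of like brightness. Neither the spread between embryos nor that between probes of a gene, 0.29 in log2 as a pooled SD over 3747 genes, enters it. The number of arrays limits the precision. Both arrays were on the same slide and in the same scan.

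The targeted gene was lower in the homozygote, with a *Ctdnep1* signal of 144 against 672 (log2 fold change -2.11 ± 0.10, 1 probe at an unknown place in the transcript). The embryos differed in sex-linked transcripts. *Xist*, which is made from the inactive X chromosome of female cells, had signals of 344 and 634 on its pair of probes in the heterozygote and was not well above background in the homozygote, at least 59.4-fold lower. The heterozygous array also carried Y-linked transcripts, with 99.8 for *Eif2s3y* and 89.3 for *Ddx3y*, against 214 and 132 on the homozygous array. *Uty* was also higher in the homozygote, at log2 fold changes of 0.93 and 0.79 on its probes. *Kdm5d* went the other way, with 16.4 in the heterozygote and 10.3 in the homozygote (-0.56 ± 0.35). The adult β-globin genes *Hbb-bt* and *Hbb-bs* were well above background in the heterozygote alone, at 56.5 and 23.1 against 2.38 and 1.48. A sample labelled as a single embryo thus held *Xist*, Y-linked and adult globin transcripts together, and their part in the Sox values was not tested.

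None of the 9 Sox genes measured in both embryos differed by 1.5-fold, a size reached by 7.29% of all 14770 measured genes in either direction. Of the 9 genes, 7 were higher in the homozygote and 2 lower, where 52.0% and 48.0% of all measured genes were higher and lower. A 1.2-fold excess in the homozygote was reached by 4 of the 9, and no member was as much lower. They were *Sox2* and *Sox3* of SoxB1, and *Sox7* and *Sox17* of SoxF. Over all measured genes, 15.1% were as much higher and 13.9% as much lower. With all genes put into 4 equal classes by signal, the share as much higher was 12.6% and 6.74% in the upper pair of classes, which hold these 4 members. At 1.3-fold, *Sox2* and *Sox3* remained, beside 8.92% of all genes. The sizes of 1.2-fold and 1.3-fold were chosen after the values had been seen. *Sox1*, *Sox21*, *Sox4*, *Sox11* and *Sox9* lay within 1.2-fold. The median log2 fold change of the 9 genes was 0.11, and that of all measured genes was 0.01. Without scaling between the arrays all log2 values were lower by the same amount, the median of all genes was -0.10, and 30.9% of all genes were higher. The members then split into 4 higher (*Sox2*, *Sox3*, *Sox7* and *Sox17*) and 5 lower, with *Sox2* and *Sox3* past 1.2-fold. The deposited intensity table gave 5 higher and 4 lower, where 46.0% of all genes were higher. The signs of *Sox1*, *Sox4* and *Sox9* thus rested on the scaling, while *Sox11* and the mean of the *Sox21* probes were lower on each of these settings.

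**Figure D1:**
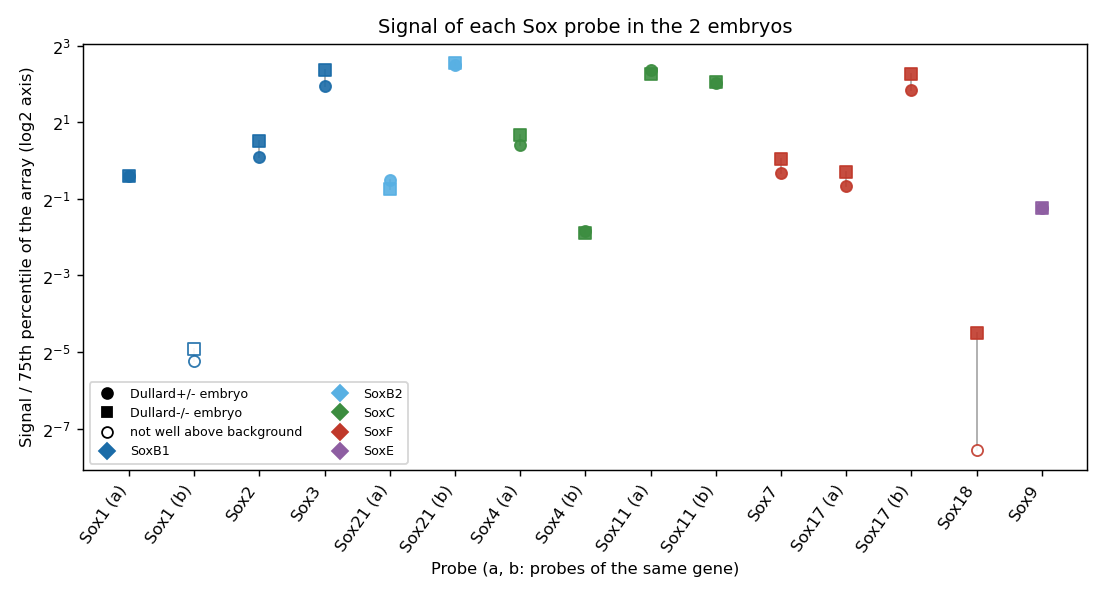
Signal of each of the 15 Sox probes over the 75th percentile of its array (vertical axis, log2 scale) in the Dullard+/- embryo (circles) and the Dullard-/- embryo (squares), with open symbols where a probe was not well above background. Signals compare between embryos for a probe and not between probes. The squares of Sox2, Sox3, Sox7 and both Sox17 probes lie above their circles, and Sox18 is well above background as a square alone.

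The SoxB1 genes did not share a ratio. *Sox2* (NM_011443), a factor of epiblast, neural plate and extraembryonic ectoderm, had a signal of 304 in the heterozygote and 381 in the homozygote on its single probe. The scaled ratio was 1.35 (log2 fold change 0.44 ± 0.08), and 7.03% of all measured genes were at least as high. *Sox3* (NM_009237), an X-linked gene of the epiblast and neural plate, had signals of 1102 and 1359, which is 1.33-fold higher (0.42 ± 0.09). Among genes of the brightest class by signal, 1.90% were at least as high as *Sox3*. *Sox1* (NM_009233), the SoxB1 gene that marks committed neural cells, had 216 and 202 on the probe that was measured, a ratio of 1.01 (0.02 ± 0.10). Its other probe was not well above background in either embryo, at 7.59 and 8.75.

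*Sox3* was the only X-linked gene of the 10, and the embryos differed in *Xist*. Over 547 X-linked genes the median log2 fold change was -0.02, against 0.01 over 14212 genes outside the sex chromosomes. The share 1.2-fold or more higher was 15.7% and 15.0%. The *Sox3* ratio was above both medians, and the part of the *Xist* difference in it was not tested.

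RefSeq promoter windows of 300 bases, from 250 before to 50 after the gene start, were at hand for 5 of the 10 genes. Those of *Sox2* and *Sox1* are shown because these SoxB1 genes lay apart in ratio. The windows were searched on both strands for the TCF/LEF core (CTTTGA or CTTTGT), the SOX core (ACAAT) and an octamer core (ATGCAAA). The octamer core is the octamer of POU factors (ATGCAAAT) without its last base. Matches are in capitals. Both windows are of GRCm38.p6 and lie on the plus strand, *Sox2* at chr3:34649745-34650044 and *Sox1* at chr8:12395269-12395568.
Sox2: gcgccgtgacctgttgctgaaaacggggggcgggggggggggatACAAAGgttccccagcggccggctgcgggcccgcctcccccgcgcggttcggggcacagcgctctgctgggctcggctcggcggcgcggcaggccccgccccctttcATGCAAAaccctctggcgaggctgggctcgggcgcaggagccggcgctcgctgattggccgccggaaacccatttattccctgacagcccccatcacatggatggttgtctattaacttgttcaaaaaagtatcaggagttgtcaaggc
Sox1: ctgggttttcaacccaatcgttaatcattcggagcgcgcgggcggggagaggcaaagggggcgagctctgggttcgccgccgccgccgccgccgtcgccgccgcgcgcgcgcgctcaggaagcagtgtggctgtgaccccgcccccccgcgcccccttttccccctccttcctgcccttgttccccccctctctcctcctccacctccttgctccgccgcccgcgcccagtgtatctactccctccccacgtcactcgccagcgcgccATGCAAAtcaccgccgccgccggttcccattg
The *Sox2* window held 1 TCF/LEF core on the minus strand, 206 bases before the start, and 1 octamer core, 99 bases before it. The *Sox1* window held 1 octamer core, 18 bases after the start, and no TCF/LEF core. The base after the octamer core is a in *Sox2* and t in *Sox1*, so only the *Sox1* match completes the octamer. The SOX core was in neither, and no matches overlapped. Of the windows not printed, that of *Sox21*, whose ratio was below that of *Sox1*, also held 1 TCF/LEF core (CTTTGA on the minus strand, 114 bases before the start), and those of *Sox4* and *Sox11* held no match. The TCF/LEF core was thus in the windows of the genes with the highest and the lowest ratio of the 5. It was in 31.2% of 32817 promoter windows of this length, the SOX core in 31.0% and the octamer core in 4.63%. A match of letters does not show that a factor binds there.

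*Sox21* (NM_177753), a SoxB2 gene that opposes the SoxB1 factors in neural progenitors and is also made in trophoblast, has a pair of probes that went apart. One gave 201 in the heterozygote and 160 in the homozygote, a log2 fold change of -0.22 ± 0.10. The other gave 1615 and 1541, a log2 fold change of 0.05 ± 0.08. Their mean was -0.09 ± 0.07, and 0.05 with the brighter probe alone, so the direction of *Sox21* depended on the probe.

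Genes known to act with or downstream of SOX2 in the epiblast went both ways, and 8 of 15 lay farther from 0 than *Sox2* while 7 lay nearer. All 15 were measured, and 10 were higher and 5 lower in the homozygote (52.0% of all genes were higher), with 1 past 2-fold in each direction. Among all measured genes the share past 2-fold was 0.894% upward and 0.765% downward. *Fgf4*, an FGF ligand whose enhancer is a classic target of SOX2 and OCT4, had a signal of 109 in the heterozygote and 33.6 in the homozygote (log2 fold change -1.59 ± 0.17). *Pou5f1*, which encodes OCT4, was at -0.06 ± 0.08. The Nodal inhibitor gene *Lefty1* was at 2.19 ± 0.19, the epiblast ligand gene *Fgf5* at 0.89 ± 0.08 and the Nodal co-receptor gene *Tdgf1* at 0.87 ± 0.06. The list median was 0.10. Without scaling it was -0.02, and 7 of the genes were higher and 8 lower, where 30.9% of all genes were higher.

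Of 18 measured genes of the neural plate and anterior ectoderm, 12 were higher and 6 lower in the homozygote, where 52.0% of all measured genes were higher. The median was 0.14 with scaling and 0.03 without it, and no gene was past 2-fold. Without scaling 10 were higher and 8 lower, where 30.9% of all genes were higher. The forebrain and epiblast gene *Otx2* was at 0.82 ± 0.08 and the anterior gene *Hesx1* at 0.62 ± 0.19. *Lhx2* of the eye field was at -0.66 ± 0.22, from 37.0 to 21.7, and *Gbx2*, which acts behind *Otx2*, was at -0.60 ± 0.19. *Sox2* and *Sox3* lay between these, on the side of *Otx2*.

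*Sox4* (NM_009238) and *Sox11* (NM_009234), the SoxC genes, each have a pair of probes. For *Sox4* the probes gave 381 and 79.6 in the heterozygote and 424 and 71.3 in the homozygote, with log2 fold changes of 0.27 ± 0.08 and -0.05 ± 0.13. Their mean was 0.11 ± 0.08. The *Sox4* probes thus differed by 0.31 in log2. The pooled SD of 0.29 is that of single probes about the mean of their gene, so it is not on the scale of a difference within a pair. For *Sox11* they gave 1469 and 1170 in the heterozygote and 1270 and 1094 in the homozygote, with log2 fold changes of -0.10 ± 0.08 and 0.02 ± 0.08 and a mean of -0.04 ± 0.06. Both *Sox11* probes lay near the median of all genes.

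Of 7 measured genes that accompany SOXC factors in neurons, 4 were higher and 3 were lower, with a median of 0.07. Without scaling 3 were higher and 4 lower (30.9% of all genes were higher, against 52.0% with it), and the median was -0.05. The adhesion molecule gene *Ncam1* was at 0.46 ± 0.12 and the microtubule regulator gene *Stmn2* at 0.35 ± 0.11. *Elavl3*, an RNA-binding protein gene of neurons, was at -0.43 ± 0.22, and the microtubule protein gene *Dcx* was at -0.34 ± 0.12 on the 1 of its probes measured in both embryos. None of the 7 was past 2-fold.

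The SoxF genes were all higher in the homozygote, and remained so without scaling. *Sox17* (NM_011441) had signals of 1035 and 182 on its pair of probes in the heterozygote and 1262 and 215 in the homozygote. The probes gave 1.32-fold and 1.27-fold and differed by 0.05 in log2, less than those of *Sox4*, *Sox11* or *Sox21*, and the mean log2 fold change was 0.37 ± 0.07. *Sox7* (NM_011446), a gene of endothelium and extraembryonic endoderm, had 228 and 270 on its single probe, which is 1.28-fold higher (0.36 ± 0.10). Of all measured genes, 9.09% were at least as high as *Sox17* and 9.93% at least as high as *Sox7*.

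*Sox18* (NM_009236), a gene of early blood vessels and lymphatic precursors, was well above background in the homozygote alone, with a signal of 11.6 against 1.5. Set against 6.20, the dimmest signal that was well above background on the heterozygous array, *Sox18* was at least 2.02-fold higher after scaling. The bound was 0.91 in log2 without scaling, 0.99 with the deposited intensity table and 0.26 with normexp background correction, so on those settings it did not reach 2-fold. It rests on 1 spot near the background, for which replicate spots of like brightness gave an error of 0.36 in log2. Of all named genes, 0.749% were well above background in the homozygote alone.

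**Figure D2:**
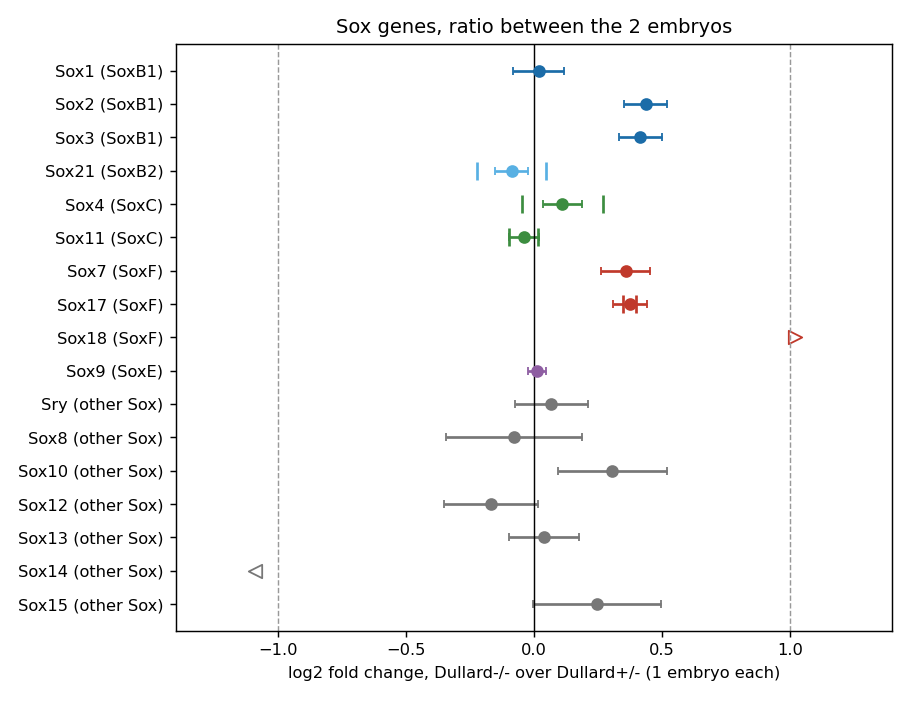
Log2 fold change (homozygote over heterozygote, horizontal axis, 1 embryo each) of the Sox genes well above background. Circles are the mean over probes, bars the SD expected from replicate spots, ticks the probes of genes with a pair of them and dashed lines 2-fold. Open triangles are genes well above background in 1 embryo, a lower bound for Sox18 and the ratio as measured for Sox14. Sox2, Sox3, Sox7 and Sox17 lie between 0.36 and 0.44, and Sox1, Sox9, Sox11 and Sox21 between -0.09 and 0.02.

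SOX17 acts among the definitive endoderm genes, whose counts of higher and lower members moved with the scaling, as those of all genes did. With it, 14 of 16 measured were higher and 2 lower (52.0% of all genes were higher), with a median of 0.14. Without it, 8 were higher and 8 lower (30.9% of all genes were higher), with a median of 0.03. *Pyy* was well above background in the heterozygote alone, with 11.7 against 7.38, which is 1.47-fold lower as measured after scaling. The chemokine receptor gene *Cxcr4* had 787 in the heterozygote and 1546 in the homozygote (log2 fold change 1.09 ± 0.08). *Hhex*, a homeobox gene of anterior endoderm, was at 0.77 ± 0.08, *Cer1* at 0.75 ± 0.08, *Gata6* at 0.68 ± 0.09 and the pioneer factor gene *Foxa2* at 0.63 ± 0.08. *Sox17* was lower than these 5 genes in ratio and above the list median. *Cer1*, *Hhex*, *Gata6* and *Foxa2* are also made in visceral endoderm.

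Extraembryonic endoderm also makes *Sox7* and *Sox17*. All 14 listed visceral endoderm genes were measured, with 5 higher, 9 lower and a median of -0.06, where 52.0% of all genes were higher. Without scaling 2 were higher and 12 lower, where 30.9% of all genes were higher. The uptake receptor gene *Cubn* was at -0.34 ± 0.06, the apolipoprotein gene *Apoa4* at -0.29 ± 0.09, *Dab2* at -0.21 ± 0.08 and α-fetoprotein (*Afp*) at 0.27 ± 0.03. Of 9 measured parietal endoderm genes, 3 were higher and 6 were lower (52.0% of all genes were higher), with a median of -0.12. Without scaling 2 were higher and 7 lower (30.9% of all genes were higher). Thrombomodulin (*Thbd*) was at 0.58 ± 0.34 at signals of 11.6 and 16.1, *Pth1r* at 0.21 ± 0.09, *Lama1* at -0.19 ± 0.10 and *Fst* at -0.48 ± 0.10. *Plat*, which encodes tissue plasminogen activator, was well above background in the heterozygote alone, with 22.4 against 2.13, at least 2.85-fold lower. Members of both lists went both ways, *Cer1*, *Hhex*, *Gata6* and *Foxa2* are on neither, and the part of extraembryonic endoderm in the *Sox7* and *Sox17* values was not tested.

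The endothelial genes, among which SOX7, SOX17 and SOX18 act, went both ways. Of 18 measured, 8 were higher and 10 lower in the homozygote (52.0% of all genes were higher), with a median of -0.02. With scaling to the median 10 were higher and 8 lower, where 59.1% of all genes were higher. VE-cadherin (*Cdh5*) had 10.4 in the heterozygote and 20.7 in the homozygote (1.10 ± 0.34), *Etv2*, a factor of endothelial and blood progenitors, was at 0.86 ± 0.08 and the VEGF receptor gene *Kdr* at 0.64 ± 0.04 as the mean of a pair of probes that differed in size. *Tek*, the angiopoietin receptor gene, was at -0.93 ± 0.34, from 19.9 to 9.67. *Tie1* and *Erg* were not well above background in either embryo.

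**Figure D3:**
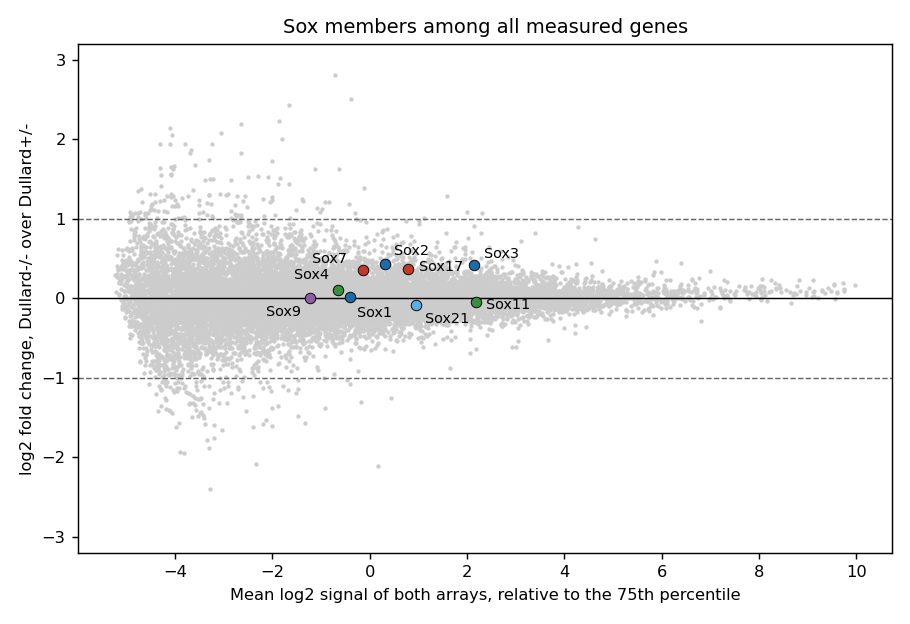
Log2 fold change (homozygote over heterozygote, vertical axis) of all 14770 measured genes (grey) against their mean log2 signal on both arrays relative to the 75th percentile (horizontal axis), with the 9 measured Sox members in colour and dashed lines at 2-fold. The grey cloud is wider at low signal, and Sox3 at 0.42 lies higher in its part of the cloud than Sox7 at 0.36 does.

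*Sox9* (NM_011448), the SoxE gene, has a probe that is spotted 10 times on each array, which gives its measurement error directly. Its signal ranged from 112 to 133 with a median of 120 in the heterozygote, and from 102 to 127 with a median of 111 in the homozygote, so the spots overlapped. The log2 fold change of the spots ranged from -0.05 to 0.21, with 5 higher and 5 lower, a mean of 0.01 and an SD of 0.08. *Sox9* thus had the smallest error of the 10 genes and a ratio at the median of all genes. The 10 spots measure the same pair of RNA samples and are not replicates of a genotype.

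**Figure D4:**
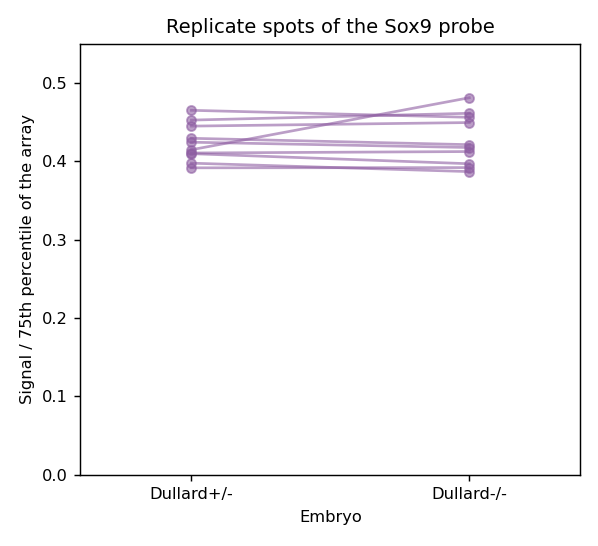
Signal of the 10 replicate spots of the Sox9 probe over the 75th percentile of the array (vertical axis) in the Dullard+/- and Dullard-/- embryo, with a line joining the spots at the same place on both arrays. The lines are nearly level, with a mean log2 fold change of 0.01, and a single spot is higher by 0.21.

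Genes of the neural plate border and neural crest, where SOX9 is later active, went both ways. Of 8 measured, 4 were higher and 4 were lower, with or without scaling (52.0% and 30.9% of all genes were higher). The median was 0.07, and -0.05 without scaling. A further 3 were well above background in the heterozygote alone and 1 in the homozygote alone. Of all named genes, 0.749% were so in the homozygote alone, and the share in the heterozygote alone was not counted. The 3 of the heterozygote were *Dlx5*, *Tfap2a* and *Pax3*. *Dlx5* had 32.3 against 6.34, at least 4.11-fold lower. *Tfap2a* was at least 2.45-fold lower as the mean over its probes, and *Pax3* had no bound past 1. *Pax7*, that of the homozygote, had 6.61 and 14.7, which is 2.41-fold higher as measured after scaling. *Snai2*, a regulator of epithelial-mesenchymal transition, had 79.9 in the heterozygote and 27.6 in the homozygote (-1.42 ± 0.19). *Foxd3*, a factor of epiblast and neural crest, had 36.2 and 65.6 (0.97 ± 0.16), and *Zic1* was at 0.32 ± 0.10. In the node and notochord, another site of SOX9, 5 of 8 measured genes lay above 0 and 3 below it, with a median of 0.08. Without scaling 3 lay above 0 and 5 below it, with a median of -0.03. Of all genes, 30.9% were then higher, against 52.0% with scaling. *Noto*, a homeobox gene of the node, was well above background in the heterozygote alone, with 18.6 against 8.17. That is 2.10-fold lower as measured after scaling. *T* (*Brachyury*) was at -1.19 ± 0.12, and *Nodal* and the retinoic acid hydroxylase gene *Cyp26a1* were at 1.0 ± 0.10 and 0.82 ± 0.09.

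The other 10 genes of the family included the SoxD genes *Sox5* and *Sox6* and *Sox30*, which were not well above background in either embryo. Of the 6 that were measured in both, 4 were higher and 2 were lower, with a median of 0.05, and *Sox10* alone was past 1.2-fold. Without scaling 2 were higher and 4 lower (30.9% of all genes were higher, against 52.0% with it). *Sox10*, a SoxE gene of neural crest, was at 0.31 ± 0.21 with signals of 28.2 and 32.3, *Sox15* at 0.25 ± 0.25, *Sox13* at 0.04 ± 0.14, *Sox8* at -0.08 ± 0.27 and *Sox12*, the remaining SoxC gene, at -0.17 ± 0.18. *Sry*, the Y-linked founder of the family, had 56.0 and 54.2 (0.07 ± 0.14) and did not follow *Eif2s3y*, which was at 1.21 ± 0.11. *Sox14* was well above background in the heterozygote alone, with 18.1 against 7.87. That is 2.13-fold lower as measured after scaling, with an error of 0.42 in log2, and it shrank to a log2 value of -0.065 with normexp. Apart from *Sox10*, none of the 6 exceeded its error from replicate spots.

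Among tissues that may add Sox transcripts to the whole embryo is extraembryonic ectoderm with trophoblast, where *Sox2* and *Sox21* are also made. Its 13 measured genes had a median of 0.00, with 6 higher and 7 lower (52.0% of all genes were higher). With scaling to the median 8 were higher and 5 lower, where 59.1% of all genes were higher. *Prl3d1* of trophoblast giant cells was at 1.07 ± 0.24, *Eomes* at 0.76 ± 0.06, *Plac1* at -0.61 ± 0.12 and *Ascl2* at -0.74 ± 0.12. All 4 measured primitive erythroid genes were lower in the homozygote, where 48.0% of all genes were lower. Their median was -1.21, and *Hbb-bh1*, an embryonic globin, was at -2.08 ± 0.19. Of 11 genes of maternal blood and decidua, 3 were measured in both embryos, with *Hba-a1* at -0.95 ± 0.10 and *Igfbp1* at 0.72 ± 0.13. The decidual prolactin gene *Prl8a2* was not well above background in either embryo, at 1.32 and 1.52. The part of these tissues in the Sox values was not tested.

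**Figure D5:**
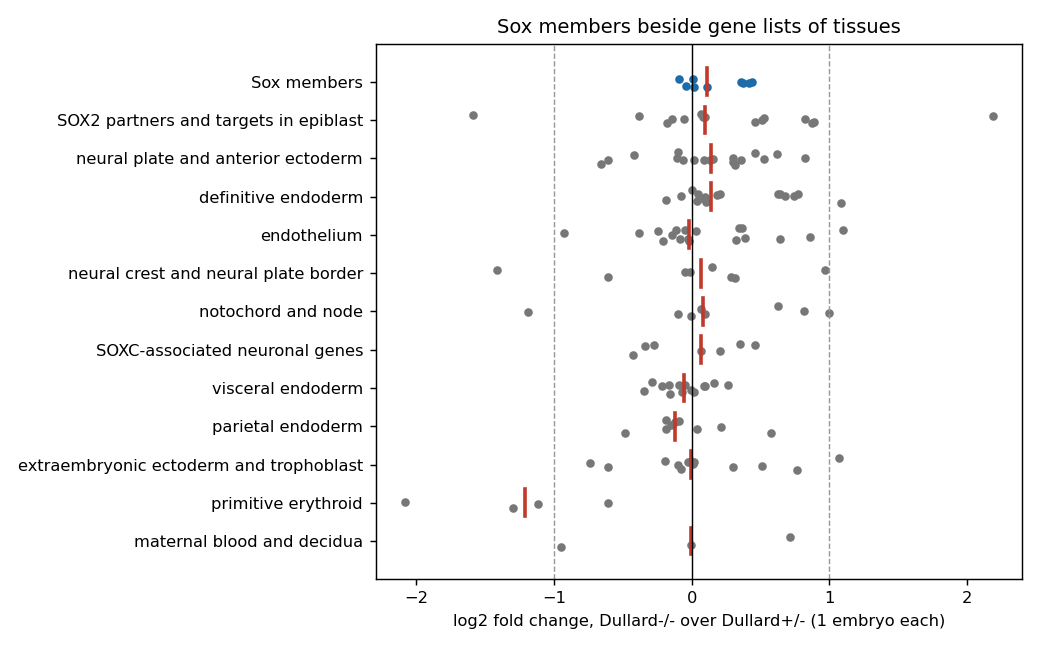
Log2 fold change (homozygote over heterozygote, horizontal axis, 1 embryo each) of the 9 measured Sox members (blue) and of the measured genes of each tissue list (grey), with the median of each as a red line and dashed lines at 2-fold. The Sox members span -0.09 to 0.44, and only the primitive erythroid list has its median past 2-fold, at -1.21.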

How the data were processed

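For each 1-colour array the authors deposited spot intensity values from Feature Extraction (Agilent, version 10.10 in the submitters' processing notes), which subtracts the background, and a table of intensity values that equals those signals times a constant per array (4.91 for *Dullard*+/- and 5.20 for *Dullard*-/-, medians 189 and 181). The sources used here do not say what set those constants. The labels give 0.1 µg of RNA as input, and the methods give a smaller amount and another kit.

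Log2 of the background-subtracted signal was taken relative to the 75th percentile over 43020 non-control spots. No spot was saturated, and 206 marked as outliers were dropped. Of the spots, 31242 (*Dullard*+/-) and 29310 (*Dullard*-/-) were well above background. RefSeq accessions named 30235 spots and left 12785 unnamed (gene table of GRCm38.p6). Spots of a probe, then probes well above background on both arrays, were averaged per gene. A gene well above background on 1 array was set against the higher of the lowest such log2 signal of the other array and its own. The first gives a bound. The second, as for *Sox14*, *Pyy*, *Noto* and *Pax7*, gives the ratio as measured. Errors pool the 40 replicated probes nearest in signal. Values were read from both arrays, 1 embryo per genotype, so genes were counted by size with no test. Members, lists and sizes were chosen with earlier results of these data known. The rule for named genes took all Sox genes, the 4 or fewer genes farthest from 0 in each list, and *Fgf4*, *Pou5f1*, *Foxa2*, *Cdh5*, *Kdr* and *T*. Genes used as checks (*Ctdnep1*, *Xist*, *Eif2s3y*, *Ddx3y*, *Uty*, *Kdm5d* and the globins) fall outside it. So do genes well above background on 1 array or none, and both kinds were picked with their values known. With 2 arrays no gene can be called alike in pattern. The steps were tested on simulated arrays. The alternatives are listed in the closing section. The software was R 4.3.3 with limma 3.58.1, and Python 3.11.15 with pandas 2.3.3 and numpy 2.4.6.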

Additional observations from a re-analysis of the deposited data

How the results depend on the processing

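The 9 alternatives were scaling to the median, no scaling, quantile normalization, the deposited intensity table, normexp (offset 50) on median signals since the columns hold no mean signals, keeping dim probes, taking each gene's brightest probe, averaging linear folds, and keeping outlier spots. *Sox2*, *Sox3*, *Sox7* and *Sox17* stayed higher in the homozygote under all 9, between 0.24 and 0.47 in log2. *Sox2*, *Sox3* and *Sox7* each have 1 probe with 1 spot. Keeping dim probes, the brightest probe, linear folds and keeping outlier spots therefore could not change their values. *Sox1*, *Sox4*, *Sox9* and *Sox21* changed sign under at least 1. Without scaling the log2 fold changes were 0.32 for *Sox2*, 0.30 for *Sox3*, 0.24 for *Sox7*, 0.26 for *Sox17*, -0.10 for *Sox1*, -0.20 for *Sox21*, -0.0028 for *Sox4*, -0.15 for *Sox11* and -0.10 for *Sox9*, and 2 members were past 1.2-fold, with 0 past 1.3-fold. The medians were then -0.018 for the SOX2 list, 0.029 for neural plate, 0.031 for definitive endoderm, -0.045 for neural crest, -0.032 for notochord and node, -0.047 for the SOXC list, -0.17 for visceral endoderm, -0.23 for parietal endoderm and -0.12 for extraembryonic ectoderm. With normexp, *Sox2* was at 0.29, *Sox17* at 0.28, the bound of *Sox18* at 0.26 and the primitive erythroid median at -0.75, and 1 member was past 1.3-fold. Its offset pulls the ratios of dim probes toward 0 by construction. With no filter on dim probes *Sox1* was at 0.17, *Sox18* at 3.06 as measured (1 member then at least 2-fold higher), the neural crest median at -0.045 and the maternal median at -0.27. With the brightest probe *Sox21* was at 0.046, *Sox4* at 0.27 and the neural crest median at 0.20, and with scaling to the median *Sox9* was at 0.048 and 4 members were past 1.3-fold, against 2 in the values reported and 1 with quantile normalization. Of 306 values over all alternatives, 269 moved by less than the error from replicate spots, or by less than 1.5 times for counts. All measured genes past 2-fold numbered 132 upward and 113 downward, against 90 and 165 without scaling, 10 and 5 with normexp and 484 and 778 with no filter. Those past 1.2-fold upward numbered 2229, and then 1332, 1022 and 5147. No paired analysis was possible because each genotype has 1 embryo, and no embryo could be left out. Probes under about 30 in signal, such as those of *Sox18* and *Sox14*, rest on brightness near the background.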
